A study of Mus musculus with 66 samples.

Results

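Many mouse genes end their transcripts at more than 1 position of the last exon, and the distance between those ends sets how much of the 3' untranslated region (3'UTR) is kept or lost when usage moves. The genes described here are those whose 2 most used polyadenylation (pA) sites in the last exon lie at least 300 and under 2000 bases apart. They were selected on read counts and position: in each gene the 2 last-exon sites with most reads summed over all 7 libraries were taken, each had to hold at least 5% of the gene's reads, together they had to average at least 20 reads per library, and the spacing limits were then applied. This gave 2159 site pairs (members) among 4567 pairs of any spacing, or 47.3%, with 1506 closer pairs and 902 pairs at 2000 bases or more. The selection used only the sum over libraries, so the values that chose the members, their depth and spacing, are given as a description. Differences between knockdowns were not part of the rule. The sum includes the knockdown libraries, however, so a site can pass the minimum through reads gained in a knockdown. In siCtrl the proximal sites of Ahnak and Zfp503, both named below, held at most 3.35% and 1.50% of the pair reads, which is under the 5% minimum. How far this bears on the shifts below was not tested.

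The data are 3'READS libraries, which count reads that carry untemplated bases of the poly(A) tail (pA site supporting, or PASS, reads), from C2C12 cells, a mouse myoblast line, in the undifferentiated state. Cells received 50 nM siRNA for 48 h, either a control siRNA (siCtrl, called siNS in the labels) or siRNA against Paf1 (siPaf1), Cdc73 (siCdc73) or Wdr61, the gene of the Ski8 protein (siSki8). siCtrl, siPaf1 and siCdc73 have 1 library in each of 2 batches, and siSki8 has 1 library in batch 2, so it has no replicate of its own. Each target has 1 siRNA condition with no rescue, and nothing says that the 2 batches were separate cultures, so p-values measure the spread between these libraries.

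Cleavage and polyadenylation of a pre-mRNA is directed by a hexamer upstream of the cut, most often AATAAA or ATTAAA, that is bound by CPSF, and by U- or GU-rich sequence downstream that is bound by CstF. Where a 3'UTR holds several such sites, cleavage at the proximal one leaves a short 3'UTR without the binding sites for microRNAs and RNA-binding proteins that lie in the stretch between the sites, while cleavage at the distal one keeps them. The Paf1 complex holds Paf1, Cdc73, Ctr9, Leo1, Ski8 and Rtf1, the last not stably bound in several species. It travels with elongating RNA polymerase II and is known for its links to histone modification, elongation and mRNA 3' end formation.

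The members' 2 sites lay a median of 878 bases apart (quartiles 535 and 1319). In the mm9 gene models, to which 2144 members could be matched, the proximal site was in the 3'UTR of the last exon in 2051 members and in the coding part of the last exon in 23 (1.07%). The distal site was in the annotated 3'UTR in 1749 members (81.0%) and past the annotated end in 373 (17.3%). The proximal site lay a median of 443.5 bases from the stop codon and the distal site 1510 bases, over the 2068 members with both distances. These are sites of ordinary tandem 3'UTRs, with the proximal one truncating the reading frame in few genes. In 1262 members (58.5%) these were the only last-exon sites with at least 5% of the gene's reads, and 897 had more.

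The hexamer differed between the sites of a pair. Within 40 bases upstream of the cut, AATAAA was found at the distal site of 1400 members (64.8%) and at the proximal site of 959 (44.4%). ATTAAA was the best match at 394 proximal and 394 distal sites (18.2% each). No hexamer of the searched set was found at 287 proximal sites (13.3%) and 113 distal sites (5.23%), the rest carrying 1 of 11 variants. Over all 38338 last-exon sites AATAAA stood at 43.3% and no hexamer at 19.7%, so the distal sites held the canonical hexamer more often than last-exon sites in general did, and the proximal sites about as often. The stretch between the sites had a median GC content of 42.5%, and 72.8% of the members held ATTTA, the core of AU-rich elements, in it.

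The last 30 bases before the cut are shown for 7 members whose pair ratio moved most clearly or in opposite ways, because they show which hexamer each of the 2 competing sites has. Each run ends at the cut, is read 5' to 3' on the gene's strand of mm9, and has the hexamer in capitals where the window held one.
Ahnak proximal, chr19:9091726-9091755, plus strand, coding part of the last exon: gaaATTAAAggagatctgaaaggttcagga
Ahnak distal, chr19:9093657-9093686, 3'UTR: aagccaAATAAAgctctttattaaccctga
Leprotl1 proximal, chr8:35200587-35200616, minus strand, 3'UTR: aagATTAAAaggattttctcatttggaaaa
Leprotl1 distal, chr8:35199109-35199138, 3'UTR: gttcagcttttACTAAAgatgtctacagcc
Rtf1 proximal, chr2:119558753-119558782, plus strand, 3'UTR: gtcattgtaaTATAAAccatttactgtata
Rtf1 distal, chr2:119560579-119560608, 3'UTR: ggctgtgtAATAAAatttttattaaaaata
Rhou proximal, chr8:126186780-126186809, plus strand, 3'UTR: tacatcattATTAAAaggctaattgctgaa
Rhou distal, chr8:126187754-126187783, 3'UTR: ctatgaAATAAAttctgacctgtggaccga
Ankrd52 proximal, chr10:127831035-127831064, plus strand, 3'UTR: ccttcaatatgtaaccaaaggaaaactcaa
Ankrd52 distal, chr10:127832997-127833026, past the annotated end: gttctgtttATTAAAatcctattgctccta
Acap3 proximal, chr4:155280840-155280869, plus strand, 3'UTR: agaggattttctacaacaacctcattctga
Acap3 distal, chr4:155281331-155281360, 3'UTR: cactcacttAATAAAtctctgccgcttgca
Hnrnpa2b1 proximal, chr6:51412759-51412788, minus strand, 3'UTR: tatgatttAATAAAataattctaaaggaaa
Hnrnpa2b1 distal, chr6:51411120-51411149, 3'UTR: ttttataaAATAAAtacttttgtatccaaa

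The libraries held 5302728 to 14340927 PASS reads, of which 7.49% to 10.3% were at the members' sites, with a median of 137 reads per member and library. In matched RNA-seq of the same design, Paf1 was at 120 and 163 CPM (counts scaled to the library total) in siCtrl and 22.9 and 31.8 in siPaf1, Cdc73 at 122 and 100.3 in siCtrl and 14.6 and 19.3 in siCdc73, and Wdr61 at 55.7 and 132 in siCtrl and 5.02 in siSki8. In the 3'READS libraries 6 of 8 myoblast markers reached 1 CPM in a library. The 8 markers summed to 2401 to 3403 in siCtrl and 1816 to 3361 in the knockdowns. The defining factors Myod1 and Pax7, however, stayed between 0 and 0.628 CPM there. Des and Vim were the largest of the 8 markers in every 3'READS library, so the sum mainly follows them. Cdh15 fell within batches, from 89.5 CPM to 45.9 (siPaf1) and 32.1 (siCdc73) in batch 1. In batch 2 Cdh15 fell from 706 to 350 (siPaf1), 129 (siCdc73) and 377 (siSki8), while Myf5 moved both ways. In RNA-seq Pax7 stood at 53.2 and 6.0 CPM in siCtrl and 1.72 to 41.6 in the knockdowns. Myotube markers (5 of 6 listed) summed to 63.9 to 93.0 in siCtrl and 20.8 to 275 in the knockdowns, the highest being siPaf1 batch 2, and none of 4 listed markers of other lineages reached 1 CPM. The siPaf1 batch 2 library stood apart, with 271 genes more than 20-fold above every other library, 7 of them members (Dnali1, Fhl4, Hdgfl1, Mtl5, Paqr9, St6galnac2 and Tcfl5), against 0 such genes in each of the other libraries. The part of these differences in the results was not tested, and the siPaf1 counts are also given without that library or by batch.

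In every knockdown library the members as a group used their proximal sites more than in either siCtrl library. The median share of pair reads at the proximal site was 42.9% and 38.9% in siCtrl batches 1 and 2, 45.7% and 47.6% in siPaf1, 50.0% and 48.5% in siCdc73, and 48.4% in siSki8. The 5 knockdown libraries all lay above both siCtrl libraries, and siPaf1 batch 1 was the nearest to them. On the log2 scale of proximal over distal reads (pseudocount 0.5), the medians were -0.36 and -0.62 in siCtrl, -0.24 and -0.14 in siPaf1, 0.00 and -0.07 in siCdc73, and -0.09 in siSki8. Members with more reads at the proximal than at the distal site numbered 947 and 860 in siCtrl and 1000 to 1057 in the knockdown libraries. The mean length of the stretch between the sites that transcripts kept, the distal share times the spacing averaged over members, was 523 and 551 bases in siCtrl, 503 and 492 in siPaf1, 479 and 492 in siCdc73, and 486 in siSki8.

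**Figure D1:**
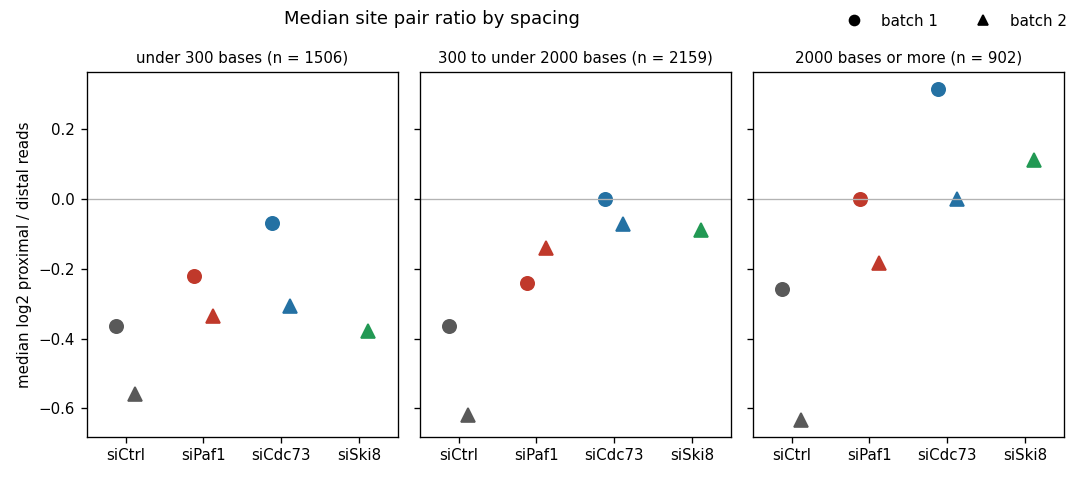
Median log2 ratio of proximal over distal PASS reads in each library (y axis) by group (x axis), with 1 point per library and a panel for pairs under 300 bases, 300 to under 2000 bases and 2000 bases or more apart. In the middle panel the siCtrl points, at -0.36 and -0.62, sit below the 5 knockdown points, which lie between -0.24 and 0.00.

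Gene by gene, the median change against siCtrl was 0.36 in log2 for siPaf1, 0.41 for siCdc73 and 0.42 for siSki8, with 63.9%, 67.1% and 65.2% of the members above 0. Within batches the medians were 0.20 (batch 1) and 0.47 (batch 2) for siPaf1, 0.36 and 0.49 for siCdc73, and 0.54 for siSki8 in batch 2. The direction of the median was therefore the same in both batches, with batch 2 the larger. The siCtrl libraries differed from each other in the same measure by -0.23 (batch 2 less batch 1), so the choice of siCtrl library moves these medians, from 0.26, 0.32 and 0.32 against batch 1 alone to 0.45, 0.54 and 0.54 against batch 2 alone. More than 2-fold shifts towards the proximal site numbered 596, 597 and 630 and towards the distal site 248, 186 and 244, in the order siPaf1, siCdc73 and siSki8. Over all 4567 pairs the medians were 0.29, 0.39 and 0.36.

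**Figure D2:**
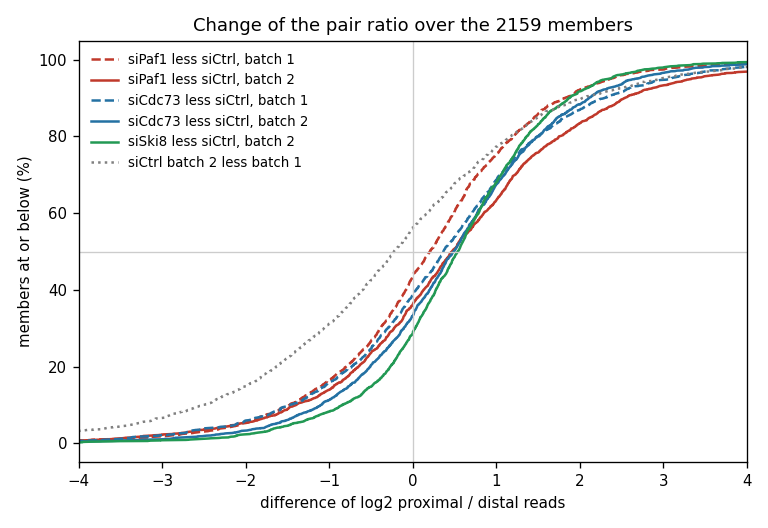
Cumulative share of members (y axis, percent) with a difference of log2 proximal over distal reads at or below the value on the x axis, for each knockdown less siCtrl of the same batch, and for siCtrl batch 2 less batch 1 (dotted). The 5 knockdown curves lie to the right of 0 at their medians, 0.20 to 0.54, and the siCtrl curve lies to its left, at -0.23.

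Single members were tested as an interaction of site and knockdown in edgeR, fitted to all 4567 pairs. Without a term for batch, which the study's methods do not mention, 0 members passed an adjusted p of 0.05 in any knockdown, and so did 0% of all pairs. At an unadjusted p under 0.05 that fit had 88 members towards proximal and 17 towards distal in siPaf1 (of all pairs 3.7% and 1.31%), 78 and 8 in siCdc73 (3.57% and 0.591%), and 26 and 2 in siSki8 (1.16% and 0.11%), and DESeq2 without batch called 5, 3 and 0, among them Ahnak, H3f3b and Leprotl1 in siPaf1 and Ahnak, Ankrd52 and Rhou in siCdc73. With batch in the model as a replicate block, 127 members moved to the proximal and 22 to the distal site in siPaf1 (5.88% and 1.02% of the members against 4.93% and 1.69% of all pairs). In siCdc73 the numbers were 89 and 5 (4.12% and 0.232%, against 3.83% and 0.416%), and in siSki8 7 and 0 (0.324% and 0%, against 0.306% and 0%). The shares called were close to those over all pairs. All calls named from here on come from this blocked fit, and none of them passes in edgeR without the block.

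The blocked counts rested on single libraries. Left out in turn, siCtrl batch 1, siCtrl batch 2, siPaf1 batch 1 and siPaf1 batch 2 left 56, 7, 175 and 16 called members in siPaf1. In siCdc73, leaving out siCtrl batch 1, siCtrl batch 2, siCdc73 batch 1 and siCdc73 batch 2 left 29, 8, 23 and 36, and in siSki8 leaving out either siCtrl library left 0. Calls that held whichever of the 6 replicated libraries was left out numbered 4 in siPaf1 (H3f3b, Ahnak, Leprotl1 and Hsbp1), 2 in siCdc73 (Ahnak and Rhou) and 0 in siSki8. The direction was the same in every batch for all but 4 of 149 called members in siPaf1, and for 94 of 94 and 7 of 7 in the other knockdowns.

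Without any model, the share of members whose 2 knockdown libraries both lay above both siCtrl libraries was 24.04% (519 members) for siPaf1, against 22.6% of all pairs, and 24.9% (538) for siCdc73, against 24.7%. Members with both knockdown libraries below both siCtrl libraries numbered 251 (11.6%) for siPaf1, against 12.1% of all pairs, and 160 (7.41%) for siCdc73, against 8.43%. The imbalance between the directions was thus present in the raw ratios, at the rate of pairs of any spacing.

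Ahnak, which encodes a very large scaffold protein found at the cell periphery, had the lowest adjusted p of the members in siCdc73 and moved in siPaf1 too. Its proximal site lies 1931 bases before the distal one, within the reading frame and 1056 bases upstream of the last coding base. The proximal share was 3.35% and 1.48% in siCtrl, 39.9% and 23.02% in siPaf1, 75.04% and 59.0% in siCdc73, and 2.53% in siSki8. The siPaf1 and siCdc73 libraries were all far above siCtrl, siCdc73 above siPaf1, and siSki8 lay between the siCtrl libraries. The log2 change was 4.27 ± 0.55 (SE, adjusted p = 5.49e-10, edgeR with batch) in siPaf1 and 6.50 ± 0.55 (1.71e-20) in siCdc73, and it was 0.74 in siSki8 (0.902). Without any 1 library the adjusted p stayed at or under 2.32e-04 in siPaf1 and 3.29e-09 in siCdc73. The change was at the proximal site, whose own level rose by a log2 of 3.89 and 6.10, while the distal site changed by -0.39 (adjusted p = 0.471) and -0.42 (0.422).

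In siPaf1 the other calls that held without every library were in genes with quite different roles. Hsbp1 encodes a small protein that binds heat shock factor 1, and its proximal share was 87.1% and 53.5% for siCtrl against 98.6% and 95.5% for siPaf1. The log2 change was 3.80 ± 0.43 (adjusted p = 1.72e-12, 2.32e-04 at most without a library). The siPaf1 libraries were the highest of the 7, but the siCtrl libraries were far apart, and siCdc73 at 92.6% and 79.3% and siSki8 at 70.5% overlapped them. Within its batch, each siCdc73 and siSki8 library of Hsbp1 still lay above siCtrl. The siCdc73 change was a log2 of 1.33 in the blocked fits without either siPaf1 library. H3f3b, which encodes the replacement histone H3.3, was at 75.2% and 66.7% in siCtrl, 94.7% and 97.2% in siPaf1, 85.6% and 79.4% in siCdc73, and 70.3% in siSki8, with a change of 3.33 ± 0.47 in siPaf1 (1.71e-08, 0.00592 at most without a library) and of 0.95 in siCdc73 (0.290). Leprotl1, a membrane protein of the endosomal system, was at 51.6% and 32.8% in siCtrl, 91.1% and 84.6% in siPaf1, 86.3% and 67.7% in siCdc73, and 40.5% in siSki8. Its siPaf1 and siCdc73 libraries all lay above siCtrl and siSki8 lay between the siCtrl libraries. The change was 3.38 ± 0.48 (2.27e-08, 9.99e-04 at most) in siPaf1 and 2.31 ± 0.47 (3.14e-04) in siCdc73, the latter lost without siCtrl batch 1 (0.0702) or batch 2 (0.103). As the sequences above show, its proximal site carries ATTAAA and its distal site only a variant, ACTAAA. At Leprotl1 the proximal site rose by a log2 of 1.26 in siPaf1 while the distal one fell by 2.11.

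Ciapin1, which takes part in cytosolic iron-sulphur cluster assembly, was mostly proximal in all libraries. Its share was 85.1% and 88.1% in siCtrl, 96.2% and 98.3% in siPaf1, 94.4% and 97.0% in siCdc73, and 91.2% in siSki8. All 5 knockdown libraries lay above both siCtrl libraries, siSki8 being the nearest to them. The log2 change was 2.57 ± 0.41 in siPaf1 (8.02e-07, lost without siCtrl batch 2 at 0.0521) and 1.86 ± 0.40 in siCdc73 (8.12e-04, lost without siCtrl batch 2 at 0.445 and siCdc73 batch 2 at 0.0636).

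Rtf1, which the study counts as a Paf1 complex subunit but found not to co-precipitate with the others in C2C12, had 1826 bases between its sites. The proximal share was 14.5% and 11.4% in siCtrl, 34.3% and 61.1% in siPaf1, 48.7% and 47.7% in siCdc73, and 37.5% in siSki8. Every knockdown library lay above both siCtrl libraries. The change was 2.72 ± 0.61 in siPaf1 (adjusted p = 0.00103, lost without siCtrl batch 2 at 0.504 and siPaf1 batch 2 at 0.387), 2.71 ± 0.60 in siCdc73 (0.00123, lost without siCtrl batch 2 at 0.575 and siCdc73 batch 1 at 0.0864), and 1.85 in siSki8 (0.426). The proximal site, with the variant TATAAA, rose by a log2 of 3.03 and 3.27 in siPaf1 and siCdc73, and the distal site, with AATAAA, changed by 0.33 and 0.56 (adjusted p = 0.617 and 0.322).

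In siCdc73, Rhou kept its call without every library. Its proximal share was 7.14% and 16.7% in siCtrl, 26.5% and 41.6% in siPaf1, 63.6% and 53.3% in siCdc73, and 20.2% in siSki8. The order was siCtrl, siSki8, siPaf1 and siCdc73 with no overlap between groups. The change was 3.19 ± 0.58 in siCdc73 (3.20e-05, 0.0198 at most without a library), and 1.91 ± 0.54 in siPaf1 (0.0132, lost without either siCtrl library or siPaf1 batch 2, up to 0.500). Here the distal site fell by 2.78 in siCdc73, while the proximal site changed by 0.37 (adjusted p = 0.638).

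**Figure D3:**
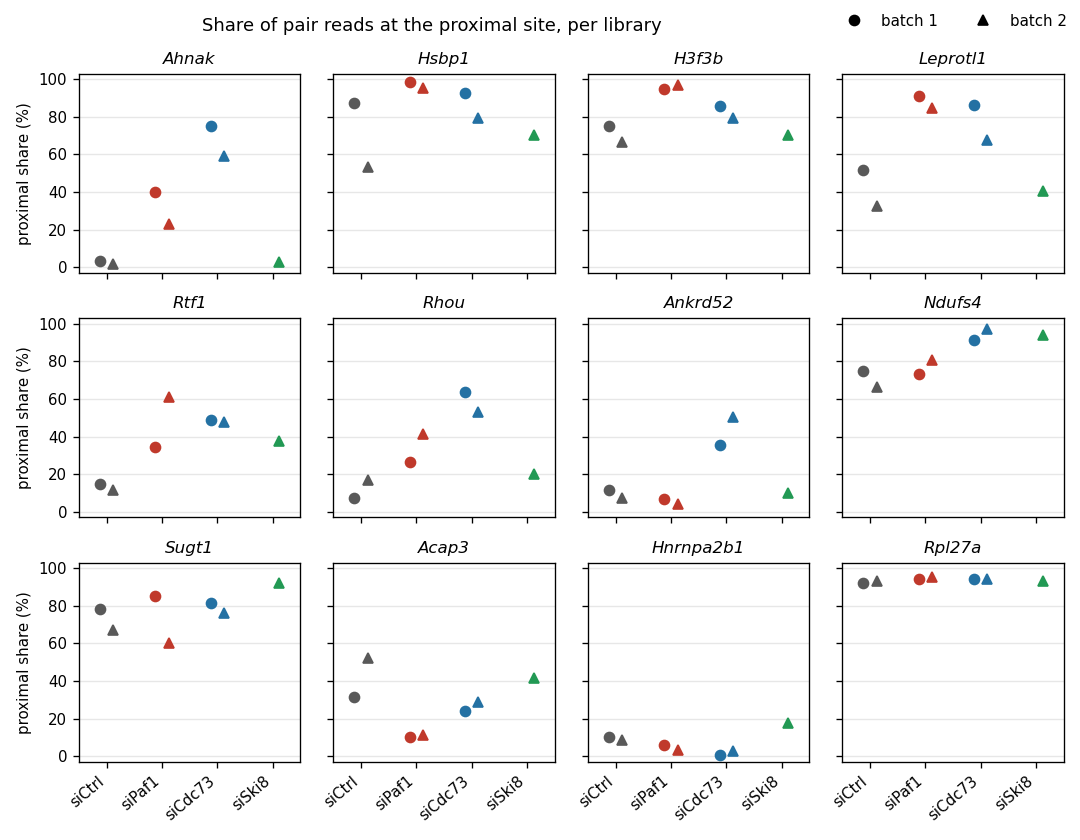
Proximal share of pair reads in percent (y axis) in each library for members named in the text, by group (x axis), with a marker shape for each batch. Ahnak runs from 1.48% in siCtrl to 75.04% in siCdc73, and Ankrd52 stands high in siCdc73, at 35.5% and 50.3%, with the other groups at or under 11.5%.

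Other members were called mainly in siCdc73. Ankrd52, a regulatory subunit of protein phosphatase 6, was at 11.5% and 7.25% proximal in siCtrl, 6.67% and 4.13% in siPaf1, 35.5% and 50.3% in siCdc73, and 9.84% in siSki8. The siCdc73 libraries were above all others and the siPaf1 libraries below them. The change was 2.90 ± 0.51 in siCdc73 (1.70e-05, lost without siCtrl batch 2 at 0.115 and siCdc73 batch 2 at 0.0737) and -0.87 in siPaf1 (0.419), and the difference between the knockdowns was 3.77 ± 0.52 (adjusted p = 1.41e-08, blocked fit). Ndufs4, a subunit of mitochondrial complex I, was at 74.9% and 66.5% in siCtrl, 73.1% and 80.6% in siPaf1, 91.3% and 97.2% in siCdc73, and 94.2% in siSki8. Its siCdc73 and siSki8 libraries were the highest, and siPaf1 overlapped siCtrl. The change was 2.98 ± 0.52 in siCdc73 (1.49e-05, lost without siCtrl batch 2 at 0.251 and siCdc73 batch 2 at 0.0740) and 2.50 ± 0.65 in siSki8 (0.0533), and siCdc73 was above siPaf1 by 2.50 ± 0.52 (6.13e-04, lost without siCdc73 batch 2 at 0.412). Fyttd1, an adaptor of mRNA export, was at 5.10% and 1.76% in siCtrl, 10.3% and 6.603% in siPaf1, 29.0% and 7.77% in siCdc73, and 2.40% in siSki8, with a change of 2.58 ± 0.46 in siCdc73 (2.01e-05, lost without siCdc73 batch 1 at 0.0623) and of 1.52 ± 0.46 in siPaf1 (0.0216, lost without either siCtrl library or siPaf1 batch 2, up to 0.636). The siPaf1 and siCdc73 libraries lay above siCtrl, and the siCdc73 libraries were far apart from each other.

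Tested directly, 41 members differed between siCdc73 and siPaf1 in the blocked fit (1.90% of the members against 2.08% of all pairs), 25 more proximal in siCdc73 and 16 more proximal in siPaf1. Between siSki8 and siPaf1 49 members differed (2.27% against 2.8%), and between siSki8 and siCdc73 12 (0.556% against 0.679%). Without the block 0 members differed in any of these edgeR tests, with 53, 76 and 47 at an unadjusted p under 0.05. Left out in turn, siCtrl batch 1 or 2, siPaf1 batch 1, siPaf1 batch 2, siCdc73 batch 1 and siCdc73 batch 2 left 24, 65, 12, 30 and 5 members between siCdc73 and siPaf1, 28, 118, 4, 70 and 62 between siSki8 and siPaf1, and 2, 8, 8, 3 and 11 between siSki8 and siCdc73.

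Fewer members moved the other way, to the distal site. Acap3, a GTPase-activating protein for Arf, was at 31.4% and 52.3% proximal in siCtrl, 10.4% and 11.2% in siPaf1, 23.8% and 28.8% in siCdc73, and 41.4% in siSki8. Both siPaf1 libraries lay below all others, and siCdc73 lay below siCtrl. The change was -2.57 ± 0.48 in siPaf1 (5.04e-05, lost without siCtrl batch 2 at 0.254), with the proximal site, which has no hexamer in the run shown, falling by 1.40 and the distal site rising by 1.18. Hnrnpa2b1, an abundant splicing regulator and RNA-binding protein, was at 10.3% and 8.80% in siCtrl, 5.79% and 3.54% in siPaf1, 0.681% and 2.92% in siCdc73, and 17.5% in siSki8. Both siPaf1 and siCdc73 lay below siCtrl and siSki8 above it. The change was -2.78 ± 0.43 in siCdc73 (6.51e-07, lost without siCdc73 batch 1 at 0.102) and -1.15 in siPaf1 (0.0739).

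Further distal shifts in siPaf1 were those of Plin4, a lipid droplet protein (-3.66, adjusted p = 0.00194), Zmym1, whose proximal site lies in the coding part (-3.42, 0.0039), Napa, the alpha-SNAP protein that recycles SNARE complexes (-2.37, 0.00194), and Os9, a lectin of endoplasmic reticulum quality control (-2.14, 0.00807). Plin4 and Napa lost the call without siCtrl batch 2 or siPaf1 batch 2, and Zmym1 and Os9 without either siCtrl library or siPaf1 batch 2, with adjusted p-values up to 0.604, 0.653, 0.254 and 0.313. In siCdc73 they were Sar1a, the GTPase that starts COPII coats (-1.38, 0.0428), Lrp10, a lipoprotein receptor relative (-2.04, 0.0213), Wdr18 (-1.65, 0.0242) and Ino80e, a subunit of the INO80 chromatin remodeller (-1.57, 0.0125). Each of these lost its call without either siCtrl library, with adjusted p-values up to 0.756, 0.531, 0.501 and 0.378, Sar1a also without siCdc73 batch 2 and the other members without either siCdc73 library. These shifts were not confined to siCdc73. Sar1a and Ino80e were also called to the distal site in siPaf1, though neither call held without every library. Wdr18 was at 48.6% and 73.3% proximal in siPaf1 against 81.0% and 82.8% in siCtrl.

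The 7 siSki8 calls rested on 1 knockdown library. It was set against both siCtrl libraries with a batch shift estimated over all groups, and the spread was taken from the other groups. Sugt1, a co-chaperone of HSP90, was at 78.4% and 67.0% proximal in siCtrl, 85.3% and 60.2% in siPaf1, 81.3% and 76.4% in siCdc73, and 92.2% in siSki8 (95% Wilson interval 90.6% to 93.6%, counting error only), a change of 2.66 ± 0.57 (adjusted p = 0.0252). The siSki8 library was the highest of the 7. Sec22b, a SNARE of traffic between the endoplasmic reticulum and the Golgi, was at 17.3% and 52.1% in siCtrl and 86.3% (83.0% to 89.1%) in siSki8, again the highest, with a change of 2.84 (0.0457). Col5a1, a chain of type V collagen, was at 32.7% and 43.1% in siCtrl, 47.9% and 41.1% in siPaf1, 31.3% and 38.6% in siCdc73, and 72.8% (70.9% to 74.6%) in siSki8, with a change of 2.02 (0.0457). Dazap1, an RNA-binding protein, was at 10.7% and 6.23% in siCtrl and 24.1% (21.9% to 26.4%) in siSki8, a change of 2.33 (0.0457). All of these siSki8 values lay above both siCtrl libraries. Clic4, an intracellular chloride channel protein, was at 14.9% and 5.31% in siCtrl and 27.0% (23.7% to 30.5%) in siSki8, a change of 2.74 (0.0457). Ankle2, a protein of the nuclear envelope, was called at 2.28 (0.0457), but stood at 84.3% in siCtrl batch 1, 47.4% in batch 2 and 82.9% (80.7% to 85.0%) in siSki8, so its siSki8 value lies inside the siCtrl range. These 6 calls were lost without either siCtrl library, with adjusted p-values up to 0.360 (Sugt1), 0.354 (Sec22b), 0.567 (Col5a1), 0.691 (Dazap1), 0.802 (Clic4) and 0.969 (Ankle2). No member was called towards the distal site in siSki8.

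Grouped by function, the called members were spread over many processes. Of 61 members in membrane traffic, 6 moved to proximal and 1 to distal in siPaf1, 5 and 1 in siCdc73, and 1 and 0 in siSki8, with median changes of 0.46, 0.54 and 0.57. They include Rab1, a GTPase of transport from the endoplasmic reticulum to the Golgi, at 9.497% and 2.60% proximal in siCtrl and 29.7% and 21.7% in siPaf1 (2.71 ± 0.55, adjusted p = 2.23e-04, lost without siCtrl batch 2 at 0.449). They also include Snx7, a sorting nexin, at 60.2% and 74.5% in siCtrl and 86.5% and 93.6% in siCdc73 (2.18 ± 0.50, 0.00167, lost without siCtrl batch 2, up to 0.503, or siCdc73 batch 1). In both genes the knockdown libraries named did not overlap siCtrl. Cfl2, the muscle form of the actin-severing protein cofilin, was at 56.7% and 52.5% in siCtrl and 79.4% and 89.3% in siPaf1 (2.25 ± 0.44, 1.49e-04, lost without siCtrl batch 2, up to 0.254, or siPaf1 batch 2), and both siPaf1 libraries of Cfl2 lay above siCtrl.

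Of 28 members among cell cycle regulators, 4 moved to proximal in siPaf1, 2 in siCdc73 and 0 in siSki8, and none to distal. Ccnd1, cyclin D1 of the G1 phase, was at 38.3% and 25.6% in siCtrl, 82.8% and 72.6% in siPaf1, 100.0% and 39.1% in siCdc73 and 17.1% in siSki8. Both siPaf1 libraries lay above siCtrl, and the lowest pair total of any library was 9 reads. Its change in siPaf1 was 2.96 ± 0.69 (0.00182, lost without either siCtrl library or siPaf1 batch 2, up to 0.210), and its distal site fell by 2.36. Of 29 chromatin modifiers, 0 moved to proximal and 1 to distal in siPaf1, 3 and 1 in siCdc73, and 0 in siSki8. Their median changes were 1.16, 1.05 and 0.74, the first 2 being the highest of the 16 lists in siPaf1 and siCdc73, although few members passed the test. Hmgb2, a high mobility group protein, shows how far depth and batch can matter, with 12.5% and 68.5% proximal in siCtrl and 33.3% and 97.4% in siCdc73. These shares came from 72 and 451 pair reads in siCtrl and 9 and 540 in siCdc73, and siPaf1 batch 1 held 1 read. It was called in siCdc73 at 3.44 ± 0.74 (7.66e-04, lost without siCtrl batch 2, up to 0.951, or siCdc73 batch 2), and its siCdc73 libraries overlapped siCtrl.

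Of 54 zinc finger genes of the Zfp series, 4 moved to proximal in siPaf1 and 0 in siCdc73 or siSki8. Zfp503 was at 0.658% and 1.50% in siCtrl, 17.3% and 9.02% in siPaf1, 9.27% and 4.23% in siCdc73, and 2.21% in siSki8, all knockdown libraries above siCtrl (siPaf1 3.32 ± 0.66, adjusted p = 1.50e-04, lost without siCtrl batch 1 at 0.0782). Of 31 splicing factors 1 moved each way in siPaf1 and in siCdc73, the proximal one in both being Hnrnpa0. Of 25 members among proteasome and chaperone genes, 1 moved to proximal in siPaf1 and 2 in siCdc73, among them Cct8, a subunit of the cytosolic chaperonin, at 85.1% and 84.4% in siCtrl and 95.4% and 95.9% in siCdc73 (1.98 ± 0.41, 3.59e-04, lost without either siCtrl library, up to 0.179). All knockdown libraries of Cct8 lay above siCtrl.

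Of 18 members in MAP kinase and PI3 kinase signalling 1 moved to proximal in siPaf1 and 1 in siCdc73, in both the receptor Fgfr1, and of 6 members among elongation factors and the Paf1 complex 1 in each, Rtf1. Of 25 matrix and adhesion genes 1 moved in siCdc73 (Thbs1) and 1 in siSki8 (Col5a1), of 16 translation factors 1 in siPaf1 (Eif4a2), and of 8 genes of RNA silencing 1 in siPaf1 (Cnot4). No member was called among 4 cleavage and polyadenylation factors, 28 ubiquitin conjugation genes, 14 genes of TGF-beta, BMP and Wnt signalling or 6 muscle regulators. The lists were drawn up with earlier results of these data known, and a list's count is to be read against the 5.88%, 4.12% and 0.324% of all members called to proximal.

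Of the members with most reads, Rpl27a, a ribosomal protein gene, lay between 92.0% and 95.4% proximal in all 7 libraries. Ncl, nucleolin, ran from 34.9% in siPaf1 batch 1 to 60.1% in siSki8, and Ddx5, an RNA helicase, from 1.16% in siPaf1 batch 1 to 17.6% in siSki8, with the siCtrl libraries at 1.86% and 10.1%. The batches of Ddx5 differ more than its groups do. Nap1l1, a histone chaperone, ran from 10.2% in siCtrl batch 1 to 23.5% in siSki8. Thbs1, the matrix protein thrombospondin, was at 11.2% and 2.20% in siCtrl, 22.8% and 2.83% in siPaf1, 29.6% and 11.6% in siCdc73, and 3.72% in siSki8. Its ratio was 2.14 ± 0.39 higher in siCdc73 within batches (3.66e-05, lost without siCdc73 batch 2 at 0.115), although siCdc73 batch 2 lay only just above siCtrl batch 1. Cdh13, Pcbp2, Zfp260 and Arsk, which are members and which the study also names, were not called. The study shows only Zfp260 for 3'UTR sites. Pcbp2 is its example for sites upstream of the last exon, and Cdh13 and Arsk had primers for full-length against total transcripts. Zfp260 was at 65.2% and 36.4% in siCtrl, 66.2% and 70.2% in siPaf1, 68.4% and 78.5% in siCdc73, and 59.0% in siSki8. Its siPaf1 and siCdc73 libraries lay above both siCtrl libraries, siPaf1 batch 1 only just.

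Within the spacing range, pairs further apart had somewhat larger shifts in siCdc73 and siSki8. The median change by spacing, for members from 300 (654 members), 600 (599), 1000 (534) and 1500 bases (372) up to the next limit, was 0.28, 0.41, 0.52 and 0.63 in siSki8. In siCdc73 it was 0.34, 0.43, 0.39 and 0.58 and in siPaf1 0.32, 0.33, 0.39 and 0.40. The siCtrl libraries differed by -0.17, -0.13, -0.29 and -0.28 in the same order, and no order was tested. In batch 1 alone the siPaf1 medians were 0.23, 0.14, 0.19 and 0.24. Members called to proximal numbered 23, 38, 33 and 33 in siPaf1 and 18, 24, 20 and 27 in siCdc73.

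**Figure D4:**
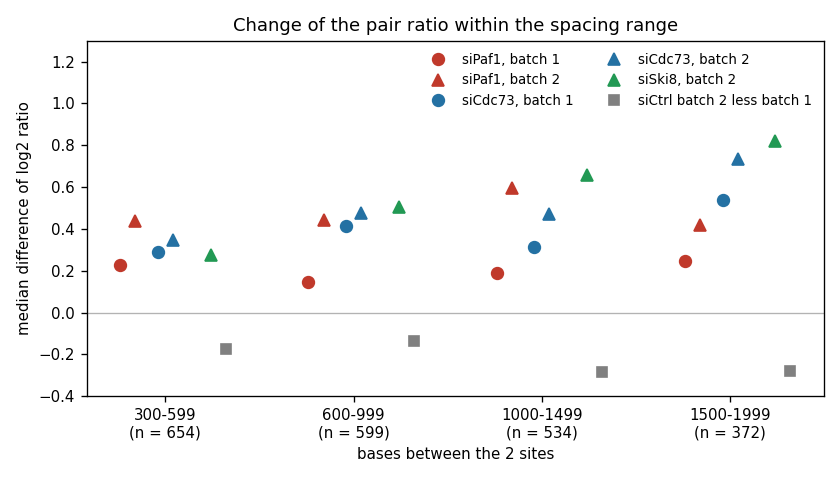
Median difference of log2 proximal over distal reads against siCtrl of the same batch (y axis) for members in 4 spacing ranges (x axis, bases between the sites), with 1 point per knockdown and batch and squares for siCtrl batch 2 less batch 1. The siSki8 points rise from 0.27 to 0.82, the siPaf1 batch 1 points stay between 0.14 and 0.25, and the siCtrl squares stay below 0.

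The limits of the range cut through a continuous spread. Rasa1 and Tomm22, at 300 bases, had changes of 0.12 and 0.75 in siPaf1, and Srek1ip1 and Sfxn3, outside at 298 and 299 bases, of 0.52 and -0.12. St6galnac4 and Cldn1, at 1996 and 1997 bases, had changes of -1.02 and 1.90 in siPaf1. Cldn1 had 0% proximal reads in both siCtrl libraries and siPaf1 batch 1 and 32.7% in siPaf1 batch 2, so its value rests on that library and the pseudocount. Sytl5 and Prkci, outside at 2000 and 2002 bases, had changes of 0.70 and 1.50.

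Against closer and wider pairs, none of the members' differences passed a test over libraries. The median ratio of each library rose more in members than in pairs under 300 bases, by 0.12 in siPaf1 (exact two-sided permutation over libraries, p = 0.667), 0.18 in siCdc73 (p = 0.333) and 0.18 over all 5 knockdown libraries (p = 0.190). The rise less that of pairs of 2000 bases or more was -0.052 in siPaf1 (p = 1.0), -0.15 in siCdc73 (p = 0.667) and -0.11 over all knockdown libraries (exact permutation, p = 0.476). Adjusted over the 6 tests the p-values were 0.8 or 1.0, and 2 libraries against 2 cannot give less than 0.333, or 5 against 2 less than 0.0952. The permutation exchanges libraries across batches. Within batches 1 and 2 the difference from close pairs was -0.02 and 0.26 in siPaf1 and 0.066 and 0.30 in siCdc73, and 0.35 in siSki8, and that from wide pairs was -0.13 and 0.03 in siPaf1, -0.21 and -0.085 in siCdc73, and -0.21 in siSki8. The siCdc73 differences thus had the same sign in both batches and the siPaf1 ones did not. The order also depended on the measure, since the median of the per-gene changes in siPaf1 was 0.36 in members, 0.20 in close and 0.27 in wide pairs, while in siCdc73 it was 0.41, 0.26 and 0.67 and in siSki8 0.42, 0.15 and 0.65. In the blocked fit 1.26% of the close pairs were called to proximal in siPaf1 and 0.797% in siCdc73, against 8.76% and 8.20% of the wide pairs, with the members between them at 5.88% and 4.12%. Calls to distal in siPaf1 made up 5.65% of the wide pairs, 1.02% of the members and 0.266% of the close pairs, so the wide pairs had the highest of these shares in both directions, a difference that was not tested. The difference in siPaf1 against wide pairs changed sign without siCtrl batch 2 (0.008) or siPaf1 batch 1 (0.089).

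The hexamer of the proximal site went with how much that site was used in siCtrl. The median proximal share there was 50.3% and 46.7% with AATAAA (959 members), 40.4% and 40.6% with ATTAAA (394), 37.9% and 33.7% with a variant (519), and 31.7% and 25.6% with none (287), batch 1 before batch 2. The median change over both batches was above 0 in every class and lowest where no hexamer was found. In siCdc73 it was 0.51, 0.42, 0.35 and 0.28 in that order, in siSki8 0.57, 0.45, 0.34 and 0.15, and in siPaf1 0.39, 0.32, 0.37 and 0.28. In batch 1 alone the siPaf1 values were 0.28, 0.10, 0.15 and 0.13, with ATTAAA the lowest. Members called to proximal in siPaf1 made up 6.47%, 6.09%, 5.59% and 4.18% of the 4 classes. These classes also differ in where the ratio started, and a difference between them was not tested.

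To see which site moved, the reads at each site were fitted as levels over 25737 sites, 2074 proximal and 2090 distal sites of members among them. Without the batch block 0 of these sites were called by edgeR in any knockdown, with 153, 154 and 36 proximal sites up and 99, 123 and 12 down at an unadjusted p under 0.05, and 72, 68 and 13 distal sites up and 137, 202 and 43 down. With the block the median proximal site changed by a log2 of 0.13, 0.13 and 0.23 and the median distal site by -0.17, -0.31 and -0.19 (siPaf1, siCdc73, siSki8), against 0.082, -0.012 and -0.06 over all sites. Proximal sites that rose numbered 244, 261 and 11 and those that fell 154, 172 and 4. Distal sites that rose numbered 131, 115 and 9 and those that fell 236, 303 and 9. Of all tested sites 9.62%, 9.57% and 0.268% rose and 7.03%, 8.6% and 0.385% fell. The proximal medians lay above and the distal medians below the median of all sites. Without TMM scaling the proximal medians were 0.21, 0.045 and 0.29, the distal medians -0.095, -0.40 and -0.13 and the medians of all sites 0.16, -0.10 and -0.004, in the same order around them. Without siPaf1 batch 2 the siPaf1 medians were 0.13 and -0.067, with 106 proximal sites up and 74 down and 76 distal sites up and 94 down. That fit called more sites in the other knockdowns, with 312 proximal sites up and 211 down and 147 distal up and 371 down in siCdc73, and 27, 7, 11 and 26 in siSki8.

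Of the 127 members called to proximal in siPaf1, 85 had a proximal site with a change above 0 and a distal site below 0, in 28 both changes were above 0 and in 14 both below, with median changes of 1.35 and -0.84. Of the 89 in siCdc73 the numbers were 63, 17 and 9, with medians of 1.35 and -0.56. All 7 in siSki8 were of the first kind, with 1.07 and -1.26. Ahnak and Rtf1 on the one hand, where the proximal site gained, and Rhou and Ndufs4 on the other, where the distal site lost, were thus part of a mixture. These members were called on the ratio of the same reads, which favours a proximal change above the distal one. The counts and medians therefore describe the called members and are not a test.

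**Figure D5:**
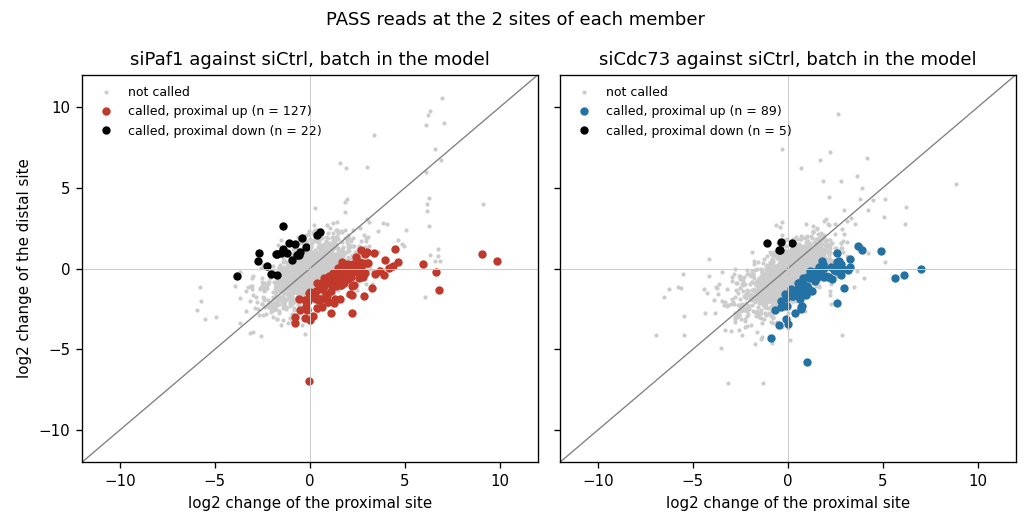
Log2 change of PASS reads at the proximal site (x axis) against that at the distal site (y axis) for each member, in siPaf1 and in siCdc73 with batch in the model, with members called to the proximal or the distal site in colour. Most called proximal members lie in the lower right quadrant, 85 of 127 in siPaf1 and 63 of 89 in siCdc73. The call on the ratio of the same reads favours points below the diagonal.

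The RNA-seq of the same design, counted over coding regions, gave gene levels for 1100 members, of which 1095 were tested among 6521 genes. Without the batch block 0 were called by edgeR in any knockdown (74, 104 and 41 up and 86, 112 and 21 down at an unadjusted p under 0.05), and DESeq2 called 58, 96 and 1. With the block 164, 213 and 55 members rose and 181, 228 and 22 fell, or 15.0%, 19.4% and 5.02% up and 16.5%, 20.8% and 2.01% down, against 16.3%, 19.4% and 2.93% up and 16.2%, 20.5% and 2.5% down over all genes tested. The median change was -0.032, -0.014 and 0.19, against 0.025, -0.021 and 0.023 over all genes. Without TMM scaling the medians were -0.022, -0.19 and -0.071, the median of all genes moved to 0.034, -0.19 and -0.23, and the split became 170 up and 183 down, 158 and 313, and 27 and 52, so the direction of the siSki8 median depended on the scaling. Without siPaf1 batch 2 the siPaf1 median was 0.026, with 161 members up and 161 down, so its sign rested on that library, and 282 rose and 303 fell in siCdc73 and 149 and 60 in siSki8.

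The members that moved to the proximal site did not share 1 direction of gene level. Among those with RNA-seq, 60 in siPaf1, 46 in siCdc73 and 5 in siSki8, the median RNA change was 0.085, 0.35 and 0.31, and 13, 15 and 0 rose while 9, 5 and 0 fell. The members not called (1020, 1045 and 1090) had medians of -0.033, -0.032 and 0.19, and 150, 197 and 55 of them rose while 169, 223 and 22 fell. In siCdc73 the members called to proximal thus rose more often than they fell, unlike those not called. This difference was not tested, and all these values are after TMM scaling. Fyttd1 rose in RNA by 1.75 in siPaf1 and 1.86 in siCdc73 (adjusted p = 2.20e-06 and 7.32e-07, edgeR with batch), whereas Clic4, whose ratio moved to proximal in all 3 knockdowns, fell by 1.44 (5.84e-05) and by 2.01 in siCdc73. The ratio calls of Clic4 were lost without either siCtrl library, and also without siPaf1 batch 1 in siPaf1 and siCdc73 batch 2 in siCdc73. H3f3b, with a ratio change of 3.33 in siPaf1, had an RNA change of -0.035 (0.925).

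Reads upstream of the last exon also changed. In the members' genes they made up 2.69% and 1.93% of the reads in siCtrl, 4.01% and 3.14% in siPaf1, 3.597% and 3.16% in siCdc73, and 2.46% in siSki8. The siPaf1 and siCdc73 libraries all lay above siCtrl and siSki8 lay within its range, and these reads enter none of the pair ratios.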

How the data were processed

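PASS reads of 7 3'READS libraries (C2C12 myoblasts, 4 siRNA groups) were analysed. The authors aligned reads with Bowtie2 to mm9 (version not given in the sources used here), kept uniquely mapped reads with untemplated Ts, and deposited raw read counts per pA site, replicates not pooled. For RNA-seq the authors deposited raw counts over coding regions beside RPKM values, which were not used here. 0 columns of per-sample values were left unmatched. Depth was 5302728 to 14340927 reads in 3'READS and 2796693 to 8160386 gene counts in RNA-seq, and intervals are 95% Wilson intervals that cover counting error only.

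Pairs were chosen as described in the report, positions taken as the files give them, and members and gene lists were chosen with earlier results of these data known. Sites were placed in mm9 gene models with a tolerance of 24 bases. Hexamers were searched in the 40 bases upstream of each site on the gene's strand. Pair ratios were tested in edgeR 4.0.16 (R 4.3.3, quasi-likelihood) with 1 coefficient per library and an interaction of site and knockdown, on all 4567 pairs, with Benjamini-Hochberg adjustment and a threshold of 0.05. siSki8, with 1 library, was tested on the spread of the other groups. A second fit added a site by batch term (the replicate block). Batch numbers come from the labels. The libraries deviated together by batch, with correlations of the batch differences across members of 0.549 (siCtrl and siPaf1), 0.568 (siCtrl and siCdc73) and 0.500 (siPaf1 and siCdc73), so the blocked values are printed beside the others. The biological coefficient of variation fell from 0.508 to 0.269 with the block. Sites and genes were tested likewise after TMM scaling. The fits were run on simulated counts with known changes. The limit on wrong calls was applied only to runs without a batch difference, so it does not cover data with batches like these. Alternatives were DESeq2 1.42.0, other count minimums, shares, spacing limits and pseudocounts, no TMM, and leaving out each library.

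Named were, per knockdown and direction, up to 5 members with the smallest blocked adjusted p among those with 50 or more reads on average whose ratio changed the same way in each batch, genes that the study names as examples or primer targets, the 5 members with most reads, up to 4 members per list (the result of 1 list is not reported here), and those beside the spacing limits. Members with 1 library far above the rest and those that held in every leave-one-out fit were named after their values were seen.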

Additional observations from a re-analysis of the deposited data

Results flagged for a closer look

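Knockdowns differed from each other in tests of the difference itself, fitted in edgeR with batch as a replicate block and sharing the siCtrl libraries. siCdc73 differed from siPaf1 in 41 members, with Ankrd52 more proximal in siCdc73 by a log2 of 3.77 and Hsbp1 less proximal by -2.48. siSki8 differed from siPaf1 in 49 members, among them Hsbp1 at -3.02 and H3f3b at -3.33 (siSki8 less siPaf1). siSki8 differed from siCdc73 in 12 members, among them Ahnak at -5.75 and Hnrnpa2b1 at 3.63. siSki8 has 1 library, so its differences have no replicate of their own, and none of these passes in the edgeR fit without batch. Without siPaf1 batch 2 the first 2 counts fell to 12 and 4, and the H3f3b difference lost its call (adjusted p = 0.230), as the only one of these 6 gene differences to do so without any of the 6 replicated libraries.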

How the results depend on the processing

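Counts of called members depended on the model. In the order siPaf1, siCdc73 and siSki8, against 0, 0 and 0 in the fit without batch, DESeq2 called 5 and 3 in the first 2, the replicate block 149, 94 and 7, and DESeq2 with the replicate block 92, 84 and 6. No read minimum gave 1 and 1 in siPaf1 and siCdc73. With the replicate block, a minimum of 50 reads gave 99 and 51, no minimum 130, 83 and 6, a share of 10% 130, 68 and 8, no share 129, 87 and 1, and limits of 400 to under 1500 bases 100, 61 and 5. Leaving out siCtrl replicate 1 or 2, siPaf1 replicate 1 or 2, or siCdc73 replicate 1 or 2 under the block gave 56, 7, 175, 16, 154 and 154, then 29, 8, 132, 137, 23 and 36, then 0, 0, 8, 7, 9 and 9, and without the block 0 at each. RNA-seq calls among members rose from 0 to 345, 441 and 77 with the block and to 58, 96 and 1 with DESeq2, and, in fits added after seeing the data, were 296, 387 and 60 with DESeq2 and block and 353, 471 and 79 with block and no TMM. Site calls rose from 0 to 765, 851 and 33 with the block, and to 787, 870 and 47 with block and no TMM (also added after seeing the data). Without siPaf1 replicate 2 under the block, likewise added, RNA-seq calls were 322, 585 and 209 and site calls 350, 1041 and 71. Median changes stayed above 0 under every alternative run, with leave-one-out ranges of 0.26 to 0.45, 0.32 to 0.54 and 0.32 to 0.54. In leave-one-out fits members less close pairs ranged over 0.01 to 0.23 in siPaf1, 0.10 to 0.27 in siCdc73 and 0.15 to 0.23 over all knockdowns, and members less wide pairs over -0.19 to 0.089, -0.27 to -0.03 and -0.17 to -0.05, the siPaf1 value turning to 0.008 without siCtrl replicate 2 and 0.089 without siPaf1 replicate 1. The 240 alternatives for named genes were set against the fit without batch, in which no member passed, so no call could be lost. Of them 207 kept direction and side of the threshold and 31 newly passed. The other 2 reversed, both in siSki8 without siCtrl replicate 2 (Ankle2 to -0.14 and Mpv17 to 2.42, with leave-one-out ranges of -0.14 to 2.43 and -4.34 to 2.42). The 207 therefore do not measure how stable the blocked calls are. The causes were not tested. Depth limits the shares, since 95% intervals over named members and libraries were 0.418 to 79.3 points wide (median 6.79).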
